A study of Mus musculus with 6 samples.

Results

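Collagens are the main structural proteins of the extracellular matrix. The collagen genes described here are the protein-coding genes whose symbol reads Col, a number, a and a number in GENCODE release M21, a rule that uses names and no measured value. It took 44 of the 48526 genes in the count tables. They comprise 11 genes of fibrillar collagens, 6 genes of type IV, the collagen of basement membranes, and 27 genes of other types. Col4a3bp, which is named after a collagen but encodes a lipid transfer protein, is not among them.

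RNA was sequenced from primary cultures of renal tubular epithelium, which were grown from digested kidney cortex of mice aged 4 to 5 weeks with EGF (20 ng/ml) and hydrocortisone (100 nM) in the medium. The 3 KO libraries came from Setd2(F/F)Ksp-Cre+ mice and the 3 WT libraries from Setd2(F/F) littermates, so both groups carried floxed alleles of Setd2, the gene of the histone methyltransferase that trimethylates lysine 36 of histone H3. Ksp is Ksp-cadherin (Cdh16), whose promoter is active in kidney tubule epithelium, and since every KO culture and no WT culture carried Cre, effects of Cre and of the deletion cannot be told apart. The labels do not say whether replicates came from separate animals, and the p-values measure a spread between libraries that may be partly technical. No step that selects tubular cells is described, so other cortical cells can be present, and in bulk RNA fewer cells of a type and less RNA per cell cannot be told apart.

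A collagen molecule is built of alpha chains, each made of repeats that place glycine at a fixed interval, which wind around one another in the endoplasmic reticulum. Most fibrillar collagens keep this helix unbroken, and fibrillar collagens assemble into fibrils, which fibroblasts make in quantity. Type IV chains have interrupted helices and join into the sheet-like network under epithelia and endothelia. In the kidney, the network of the Col4a1 and Col4a2 chains is found under most tubules and vessels, while that of the Col4a3, Col4a4 and Col4a5 chains is best known from the glomerular filter and is the one lost in Alport syndrome.

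Libraries held between 86078636 and 106974842 counted reads. At this depth the abundant chains are limited by the spread between cultures, and chains below 1 CPM (a read count scaled to library size) also by counting. Of the 10 markers of tubular epithelium, all were detected, and their summed level was 7918 to 7966 CPM in KO and 6857 to 8036 CPM in WT. Most of the sum was Krt8, at a mean of 2593 CPM in KO and 2587 CPM in WT, and Krt18, at 2019 CPM in KO and 1975 CPM in WT, and neither was called. By edgeR 2 of the 10 (20%, beside 12.0% of all tested genes) were higher in KO, Cdh16 (log2 fold change 0.27 ± 0.08 (SE), adjusted p = 0.0366) and Pax2 (0.51 ± 0.13, adjusted p = 0.0198), and none was called lower. The groups did not overlap in 4 of the 10 (40%), near the 41.9% of all tested genes, with KO above WT in 3 and below it in Epcam. Epcam was at 386, 364 and 379 CPM in KO and 411, 445 and 409 CPM in WT and was not called (edgeR adjusted p = 0.125). Setd2 was at 163, 154 and 158 CPM in KO and 185, 168 and 152 CPM in WT (log2 fold change -0.08 ± 0.08 (SE), edgeR adjusted p = 0.481), and since counts were summed over all exons they do not check the deletion. KO replicates 2 and 3 stood apart from the rest by Xist, the RNA of the inactive X chromosome, at 507 and 606.5 CPM against 0.348 to 0.683 CPM in the other 4 libraries, and by the Y-linked Ddx3y, at 0.0840 and 0.0815 CPM against 51.0 to 66.9 CPM. Results are therefore also given with a term for these 2 Xist-high libraries and without them. The fit without them sets KO replicate 1 alone against the 3 WT libraries and takes its spread to be like theirs.

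Collagen transcripts changed in both directions, more often upward. Of the 44 genes, 33 passed the filter on low counts and were tested with edgeR's quasi-likelihood test over all 17571 tested genes. At an adjusted p below the threshold of 0.05, 13 of the 33 (39.4%) were higher in KO, beside 12.0% of all tested genes, and 5 (15.2%) were lower, beside 9.08%. Without Col22a1 and Col2a1, which passed the filter through the libraries of 1 group alone, 12 of 31 (38.7%) were higher and 4 (12.9%) lower. In either direction 21.0% of all genes were called. The 3 KO values lay above all 3 WT values in 14 collagen genes and below them in 6, together 60.6% of those tested, beside 41.9% of all genes. Col22a1 is among the 14 and Col2a1 among the 6, and their passage through the filter already required a difference. The median log2 fold change (KO over WT), also with both included, was 0.36 over the collagen genes and -0.01 over all genes. These counts rested in part on single libraries: without KO replicate 3, 5 collagen genes were called higher and 1 lower, without KO replicate 1 the numbers were 9 and 1, and without WT replicate 2 they were 6 and 3. With the Xist term they were 4 and 3, and without the Xist-high libraries 5 and 1. All 18 called genes kept their direction in every alternative run, and 5 of them, Col4a2, Col6a2, Col6a3, Col12a1 and Col23a1, stayed past the threshold in every alternative that tested them.

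**Figure D1:**
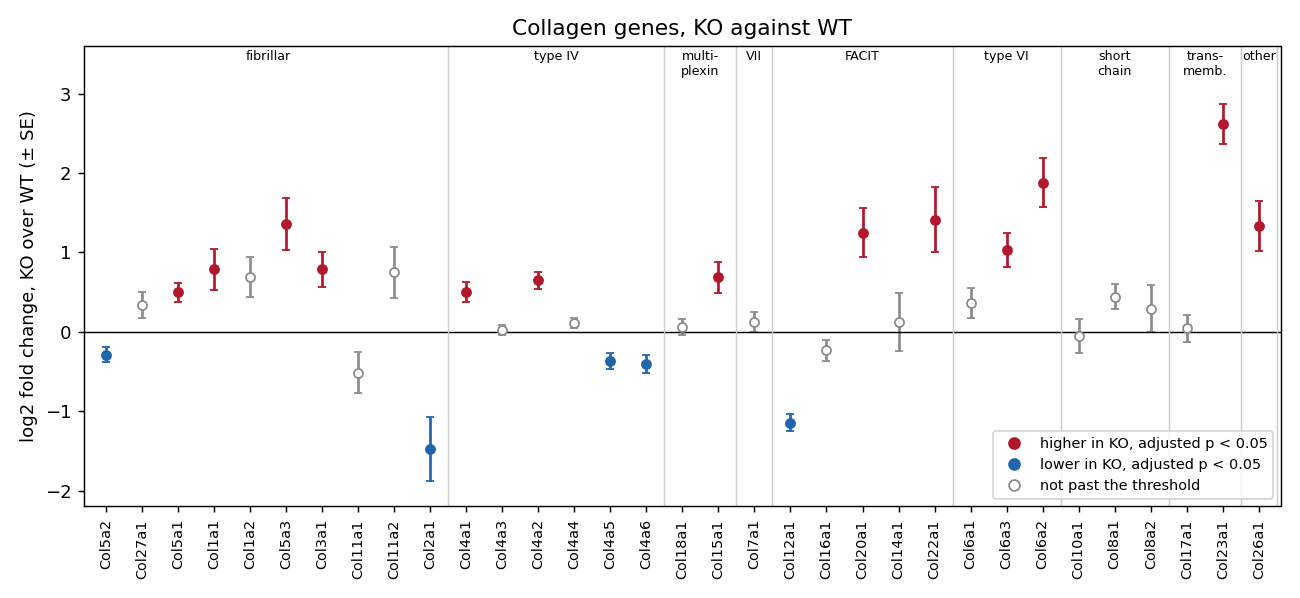
Log2 fold change of each of the 33 tested collagen genes (y axis, KO over WT; points are edgeR estimates and bars their standard errors), grouped by type along the x axis. Filled points passed the threshold: 13 genes lie above 0 and 5 below it, with Col23a1 highest at 2.62 and Col2a1 lowest at -1.48.

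Type IV genes stand in the genome as pairs that face away from each other, and both members of each pair got the same call. Col4a1 and Col4a2, which share their promoter on chromosome 8, were both higher in KO. Col4a3 and Col4a4 on chromosome 1 were not called. Col4a5 and Col4a6 on the X chromosome were both lower in KO. The promoter windows of both pairs that changed are shown because the pairs differ in how closely the starts are set and in base composition. Each runs from 250 bases before to 50 bases after the transcription start in RefSeq on GRCm38.p6, 5′ to 3′ on the strand of its gene. The Col4a1 window is chr8:11312777-11313076 on the minus strand, the Col4a2 window chr8:11312555-11312854 on the plus strand, the Col4a5 window chrX:141475169-141475468 on the plus strand and the Col4a6 window chrX:141474027-141474326 on the minus strand. Capitals mark CCAAT boxes (CCAAT or ATTGG) and GC boxes (GGGCGG or CCGCCC).
Col4a1: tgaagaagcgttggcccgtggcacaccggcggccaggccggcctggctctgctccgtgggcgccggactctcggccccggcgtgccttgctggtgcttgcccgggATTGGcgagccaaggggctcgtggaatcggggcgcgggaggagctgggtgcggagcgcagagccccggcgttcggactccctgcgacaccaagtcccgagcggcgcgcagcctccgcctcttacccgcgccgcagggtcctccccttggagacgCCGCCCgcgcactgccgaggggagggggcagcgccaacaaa
Col4a2: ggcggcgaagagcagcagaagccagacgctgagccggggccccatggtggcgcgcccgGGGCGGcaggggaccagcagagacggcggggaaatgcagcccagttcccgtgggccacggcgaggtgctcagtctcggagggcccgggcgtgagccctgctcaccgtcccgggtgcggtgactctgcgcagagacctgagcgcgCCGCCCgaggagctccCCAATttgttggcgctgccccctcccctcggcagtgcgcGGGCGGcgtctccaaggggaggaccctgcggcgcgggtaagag
Col4a5: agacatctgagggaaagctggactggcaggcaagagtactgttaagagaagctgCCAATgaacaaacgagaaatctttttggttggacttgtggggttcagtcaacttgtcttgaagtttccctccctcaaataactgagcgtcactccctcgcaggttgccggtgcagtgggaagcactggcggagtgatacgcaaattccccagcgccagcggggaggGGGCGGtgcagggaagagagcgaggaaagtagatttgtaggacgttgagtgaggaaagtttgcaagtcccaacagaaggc
Col4a6: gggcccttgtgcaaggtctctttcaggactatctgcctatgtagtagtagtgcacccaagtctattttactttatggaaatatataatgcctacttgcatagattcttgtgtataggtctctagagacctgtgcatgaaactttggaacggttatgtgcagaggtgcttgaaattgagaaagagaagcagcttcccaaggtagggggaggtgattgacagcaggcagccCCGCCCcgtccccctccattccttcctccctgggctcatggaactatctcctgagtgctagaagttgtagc

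The transcription starts of Col4a1 and Col4a2 lay 21 bases apart, so their windows are partly the same DNA read on opposite strands, with 78 bases in common. Those of Col4a5 and Col4a6 lay 1343 bases apart, and their windows do not meet. The Col4a1 and Col4a2 windows had a GC content of 74.0% and 73.7% with 37 and 33 CpG dinucleotides. The Col4a5 and Col4a6 windows had 52.7% and 48.3% GC with 11 and 3 CpG dinucleotides, and the median of all windows was 52.7% and 7. A CCAAT box was present in the windows of Col4a1, Col4a2 and Col4a5, and in 37.4% of all 32851 promoter windows. A GC box was present in all 4, with 3 in Col4a2, and in 35.7% of all windows. The box in the Col4a1 window is also among the 3 of Col4a2, the same DNA read on the opposite strand. The TATA box TATAAA (or TTTATA), found in 13.6% of all windows, was in none of the 4. These matches are letters only and show no binding.

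Col4a1 (ENSMUSG00000031502, mm10 chromosome 8, 11198423 to 11312826) was at 264, 252 and 287 CPM in KO and at 158, 178 and 232 CPM in WT. Every KO library lay above every WT library, and WT replicate 3 came nearest to the KO range. This gave a log2 fold change of 0.50 ± 0.12 (SE, edgeR adjusted p = 0.0151). Its partner Col4a2 (ENSMUSG00000031503, chromosome 8, 11312805 to 11449287) was at 161, 141 and 168 CPM in KO and at 85.2, 97.7 and 117 CPM in WT. The groups did not overlap, and the log2 fold change was 0.65 ± 0.11 (edgeR adjusted p = 0.00253). The 2 genes overlap by 22 bases at their starts on opposite strands, which is 0.295% of the exon length of Col4a1 and 0.332% of that of Col4a2. Col4a2 stayed past the threshold without each library in turn (largest edgeR adjusted p 0.0155), with the Xist term (0.0337) and without the Xist-high libraries (0.0414). Col4a1 did not pass without KO replicate 3 (edgeR adjusted p = 0.0638), without WT replicate 2 (0.0578), with the Xist term (0.142) or without the Xist-high libraries (0.181), although its log2 fold change was 0.48 in both of the last fits.

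Col4a3 and Col4a4, whose products form the mature glomerular network together with that of Col4a5, varied little between libraries. Col4a3 (ENSMUSG00000079465) was at 237, 229 and 233 CPM in KO and at 233, 229.8 and 226 CPM in WT, with groups that overlap. The fitted log2 fold change was 0.02 ± 0.07 (SE, edgeR adjusted p = 0.835). Col4a4 (ENSMUSG00000067158) was at 183, 182 and 187 CPM in KO and at 165, 172 and 175 CPM in WT. Although no KO value reached down into the WT range, the difference of 0.11 ± 0.07 on the log2 scale did not pass the test (edgeR adjusted p = 0.253).

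The X-linked chains were the lower ones. Col4a5 (ENSMUSG00000031274, chromosome X, 141475385 to 141689234), the gene of X-linked Alport syndrome in people, was at 53.9, 63.6 and 58.0 CPM in KO and at 80.3, 64.6 and 81.2 CPM in WT. The groups did not overlap, but KO replicate 2 lay just under WT replicate 2. Its log2 fold change was -0.37 ± 0.10 (SE, edgeR adjusted p = 0.0246). Col4a6 (ENSMUSG00000031273, chromosome X, 141165403 to 141474076) was at 8.92, 11.5 and 10.6 CPM in KO and at 14.9, 12.7 and 13.8 CPM in WT, again without overlap. Its log2 fold change was -0.41 ± 0.11 (edgeR adjusted p = 0.0255). Both genes lie on the chromosome whose inactivation RNA set KO replicates 2 and 3 apart, and KO replicate 1, with 0.386 CPM of Xist, held the lowest value of each. The part of that difference in these results was not tested beyond the fits with the Xist term and without the Xist-high libraries. The call of Col4a5 was lost without KO replicate 1 (edgeR adjusted p = 0.139), KO replicate 3 (0.0856) or WT replicate 3 (0.0596), with the Xist term (log2 fold change -0.48, adjusted p = 0.0848) and without the Xist-high libraries (0.129). That of Col4a6 was lost without KO replicate 1 (edgeR adjusted p = 0.135), KO replicate 3 (0.0676) or WT replicate 1 (0.0528) and without the Xist-high libraries (0.0712), and it held with the Xist term (log2 fold change -0.63, adjusted p = 0.0382).

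**Figure D2:**
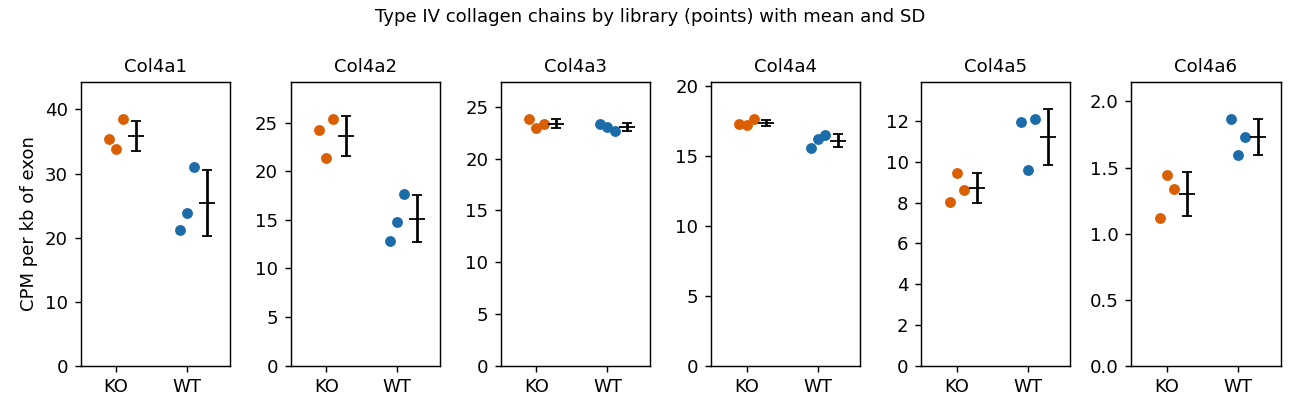
Level of the 6 type IV chains in each library (y axis, CPM per kb of exon, each panel starting at 0; points are libraries, bars the mean and SD of 3). KO lies above WT for Col4a1 and Col4a2, level with it for Col4a3, slightly above it for Col4a4 and below it for Col4a5 and Col4a6.

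Divided by exon length, type IV levels can be compared between chains. In WT the order by mean CPM per kb was Col4a1 (25.3 ± 5.13), Col4a3 (23.0 ± 0.385), Col4a4 (16.1 ± 0.464), Col4a2 (15.1 ± 2.42), Col4a5 (11.2 ± 1.39) and Col4a6 (1.73 ± 0.135; SD, n = 3). Col4a1 and Col4a3 did not differ beyond their spread there, nor did Col4a4 and Col4a2. In KO, Col4a1 stood first at 35.9 ± 2.38 CPM per kb, and Col4a2 (23.7 ± 2.06) and Col4a3 (23.4 ± 0.403) followed within their spread of each other. The ratio of Col4a1 and Col4a2 together to Col4a3, Col4a4 and Col4a5 together was 1.21, 1.11 and 1.29 in KO and 0.669, 0.789 and 0.953 in WT. The balance between the 2 networks' transcripts thus lay above 1 in each KO library and under 1 in each WT library. The summed level of the Col4a3, Col4a4 and Col4a5 chains was 49.4 ± 0.325 CPM per kb in KO and 50.3 ± 1.28 in WT, and that of Col4a1 and Col4a2 was 59.5 ± 4.33 in KO and 40.5 ± 7.54 in WT. Within the first pair, the ratio of Col4a1 to Col4a2 was 1.52 ± 0.0620 in KO and 1.67 ± 0.0761 in WT.

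Cells other than tubular ones also make type IV collagen, and their markers differed between groups. The 14 endothelial markers summed to 36.7 to 49.9 CPM in KO and 24.8 to 26.7 CPM in WT, and 8 of them were higher in KO. Among these, Cldn5 had no read in WT replicate 1 and passed the filter through the KO libraries alone. Without it, 7 of 13 (53.8%) were higher, beside 12.0% of all tested genes. The 12 podocyte markers summed to 699 to 735 CPM in KO and 604 to 685 CPM in WT, with 6 (50%) higher. The 8 markers of mesangium and smooth muscle summed to 42.6 to 54.6 CPM in KO and 34.4 to 36.6 CPM in WT, with 4 (50%) higher. No member of these 3 lists was called lower in KO, and all members passed the filter on low counts. Log2 fold changes below 0 were found for 1 podocyte marker and 2 markers of mesangium and smooth muscle, the lowest at -0.59. Among the defining genes, Pecam1 was at 3.07, 2.39 and 1.84 CPM in KO and 1.18, 1.09 and 1.24 CPM in WT. The part of these cells in the type IV results was not tested.

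The fibrillar genes were of low abundance apart from Col5a2 and Col27a1, and Col1a1 and Col3a1 were among those higher in KO. Of 11 fibrillar genes, 10 were tested and 4 were not called. KO was higher for 4 (Col1a1, Col3a1, Col5a1 and Col5a3), or 40%, beside 12.0% of all tested genes. It was lower for 2 (Col2a1 and Col5a2), or 20%, beside 9.08%. Col2a1 passed the filter through the WT libraries alone, so that a difference was required for it to be counted. Without it, Col5a2 was the only fibrillar gene called lower. The median log2 fold change of the 10 was 0.59, with Col2a1 included. The class is made of the chains of type I, the main collagen of bone, skin and scar, type III of distensible tissue, the types V and XI that start fibrils, the cartilage type II, and the types XXIV and XXVII.

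Col1a1 (ENSMUSG00000001506), which encodes the chain used in the larger number in type I collagen, was at 10.1, 7.50 and 12.4 CPM in KO and at 3.29, 6.81 and 7.31 CPM in WT. The lowest KO library, replicate 2, was close to the highest WT library. Its difference was 0.78 ± 0.26 (SE, edgeR adjusted p = 0.0488) on the log2 scale, near the threshold. The call was lost without KO replicate 1 (edgeR adjusted p = 0.125), KO replicate 3 (0.187), WT replicate 1 (0.0539) or WT replicate 2 (0.0645), with library totals (0.0559) and with a minimum mean of 1 CPM (0.0561), and DESeq2 gave an adjusted p of 0.136. Its partner chain Col1a2 was at 13.1, 8.62 and 18.7 CPM in KO and at 6.20, 7.92 and 11.0 CPM in WT, with overlap, and was not called (log2 fold change 0.69 ± 0.25, edgeR adjusted p = 0.0735). It passed without KO replicate 2 (edgeR adjusted p = 0.0173) or without WT replicate 3 (0.0280), with the replicate number as a block (0.00648) and with no filter beyond a total count of 1 (6.08e-07). The ratio of Col1a1 to Col1a2 per kb was 1.46 ± 0.195 in KO and 1.30 ± 0.313 in WT, so the chains did not part beyond their spread. The size of this ratio depends on the length used. Over all libraries Col1a1 averaged 1.21 and Col1a2 0.878 CPM per kb of exon. Per kb of the longest annotated transcript they averaged 1.33 and 2.04, in that order, with Col1a2 above Col1a1. Col3a1 (ENSMUSG00000026043), the single chain of type III, was at 6.94, 3.77 and 6.59 CPM in KO and at 2.72, 3.18 and 4.09 CPM in WT. KO replicate 2 lay inside the WT range. The groups differed by a log2 fold change of 0.79 ± 0.22 (edgeR adjusted p = 0.0268). It did not pass without KO replicate 1 (edgeR adjusted p = 0.116), KO replicate 3 (0.105), WT replicate 1 (0.0563) or WT replicate 2 (0.0788).

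Type V chains went different ways. Col5a2 (ENSMUSG00000026042), the most abundant fibrillar gene, was at 68.9, 89.5 and 81.6 CPM in KO and at 95.2, 95.3 and 103 CPM in WT. KO libraries lay below WT, with KO replicate 2 nearest to them. The log2 fold change of -0.29 ± 0.09 (SE) was just past the threshold (edgeR adjusted p = 0.0473). The call did not hold without KO replicate 1 (log2 fold change -0.17, edgeR adjusted p = 0.245), KO replicate 3 (0.117), WT replicate 2 (0.0860) or WT replicate 3 (0.0891), nor with DESeq2's size factors (0.0512), library totals (0.0567), upper-quartile factors (0.0687) or a minimum mean of 1 CPM (0.0719). Col5a1 (ENSMUSG00000026837) was at 16.4, 15.0 and 19.0 CPM in KO and at 10.3, 12.6 and 12.9 CPM in WT. The groups stood apart, with a log2 fold change of 0.50 ± 0.12 (edgeR adjusted p = 0.0140). Without KO replicate 3 it did not pass (edgeR adjusted p = 0.0685). The ratio of Col5a2 to Col5a1 per kb was 3.71, 5.29 and 3.79 in KO and 8.22, 6.71 and 7.04 in WT, lower in each KO library than in any WT library. Col5a3 (ENSMUSG00000004098) was at 6.43, 4.83 and 13.0 CPM in KO and at 2.28, 2.92 and 4.28 CPM in WT. KO replicate 3 was the highest by a wide margin. Col5a3 had a log2 fold change of 1.36 ± 0.32 (edgeR adjusted p = 0.0138) and 0.83 without KO replicate 3 (adjusted p = 0.0491).

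Col3a1 and Col5a2 are neighbours on chromosome 1 whose ends face each other across 24614 bases, and unlike the type IV pairs they moved in opposite directions. Col27a1, second to Col5a2 in level per kb among fibrillar genes, was at 38.8, 46.1 and 55.3 CPM in KO and at 28.4, 45.5 and 37.2 CPM in WT. The groups overlapped and it was not called (log2 fold change 0.33 ± 0.16 (SE), edgeR adjusted p = 0.158), although it passed with the replicate block (0.35, adjusted p = 0.0364) and with no filter beyond a total count of 1 (0.32, adjusted p = 0.00798). The remaining fibrillar genes did not exceed 0.475 CPM in any library. Col2a1 was at 0.0340, 0.0735 and 0.0713 CPM in KO and at 0.197, 0.160 and 0.155 CPM in WT, which are 3, 7 and 7 reads in KO and 17, 17 and 15 reads in WT. Col2a1 had a log2 fold change of -1.48 ± 0.41 (edgeR adjusted p = 0.0258), and it passed the filter on low counts through the WT libraries alone, so that a difference was required for it to be tested. DESeq2 did not call it (adjusted p = 0.0878). The edgeR adjusted p was 0.116 without KO replicate 1, 0.0509 without KO replicate 2, 0.0633 without KO replicate 3, 0.0685 without WT replicate 1 and 0.0620 without WT replicate 2. Col11a1 and Col11a2 were not called (edgeR adjusted p = 0.175 and 0.117). Col24a1 was below the filter.

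With the Xist term, of the 6 fibrillar calls Col5a2 was still past the threshold (edgeR adjusted p = 0.0307), and without the Xist-high libraries Col3a1 was (0.0261). The log2 fold changes without those libraries were 0.80 for Col1a1, 1.06 for Col3a1, 0.46 for Col5a1, 1.02 for Col5a3, -0.51 for Col5a2 and -2.28 for Col2a1. Fibrillar collagens are typical products of fibroblasts, whose 16 fibroblast and pericyte markers summed to 103 to 166 CPM in KO and 105 to 139 CPM in WT. Most of that sum was Acta2, at a mean of 56.3 CPM in KO and 52.8 CPM in WT, and Tagln, at 59.6 CPM in KO and 58.7 CPM in WT, both of contractile cells and neither called (edgeR adjusted p = 0.772 and 0.931). Of these markers 10 were tested and 5 (50%) were higher in KO (Pdgfra, Pdgfrb, Thy1, Rgs5 and Cspg4), beside 12.0% of all tested genes. Thy1 passed the filter through the KO libraries alone, and 4 of 9 (44.4%) were higher without it. The log2 fold changes of these 4 were 0.66 for Pdgfra, 0.91 for Pdgfrb, 1.11 for Rgs5 and 1.32 for Cspg4. None was called lower. Twist1 had every KO value below WT (log2 fold change -0.51), against 6 markers, Thy1 among them, with every KO value above WT. Together these were 70% of the 10 tested, beside 41.9% of all tested genes. Dcn and Lum, abundant in fibroblasts, were below the filter, at 0.159, 0.0315 and 0.0917 CPM in KO and 0.0347, 0.0565 and 0.124 CPM in WT for Dcn, and Lum had at most 3 reads in a library. Pdgfrb was at 7.09, 4.93 and 5.74 CPM in KO and 3.47, 2.64 and 3.32 CPM in WT. As for Col1a1 and Col3a1, its lowest KO value was that of replicate 2. Pdgfra, Rgs5 and Cspg4 also had their lowest KO value in that library, whereas Thy1 had its highest there, at 0.336 CPM. The part of such cells in the fibrillar results was not tested.

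Among the 27 genes of other types, 17 were tested and 9 were not called, with a median log2 fold change of 0.36, Col22a1 included. KO was higher for 7 (41.2%), beside 12.0% of all tested genes, and lower for 1 (5.88%), beside 9.08%. The 7 include Col22a1, which passed the filter through the KO libraries alone, so that a difference was required for it to be counted. The strongest calls of all collagen genes were here, one down and one up. Col12a1 (ENSMUSG00000032332, chromosome 9, 79598991 to 79718831) encodes the long fibril-associated collagen XII, which bridges fibrils and other matrix proteins. It was at 33.5, 41.3 and 46.4 CPM in KO and at 90.3, 87.0 and 90.4 CPM in WT. WT libraries were tightly grouped and every KO library lay far below them. The log2 fold change was -1.14 ± 0.11 (SE, edgeR adjusted p = 5.95e-05), and it ran from -1.26 to -1.01 when single libraries were left out. With the Xist term it was -1.42 (edgeR adjusted p = 0.000212). Col23a1 (ENSMUSG00000063564, chromosome 11, 51289920 to 51583918), a transmembrane collagen, was at 2.71, 1.66 and 1.70 CPM in KO and at 0.290, 0.320 and 0.373 CPM in WT. The groups lay far apart. The log2 fold change was 2.62 ± 0.25 (edgeR adjusted p = 7.26e-05), between 2.37 and 2.74 without single libraries, and 3.04 with the Xist term (adjusted p = 7.78e-05).

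The family of Col12a1, the fibril-associated collagens with interrupted helices (FACIT), held no common direction. Col16a1, second in level, was at 11.8, 13.0 and 12.9 CPM in KO and at 11.6, 16.3 and 16.4 CPM in WT and was not called (log2 fold change -0.23 ± 0.13 (SE), edgeR adjusted p = 0.218), although it passed without WT replicate 1 (-0.37, adjusted p = 0.0129). Col20a1 and Col22a1 were higher in KO at very low levels. Col20a1 was at 0.272, 0.441 and 0.377 CPM in KO and at 0.174, 0.132 and 0.155 CPM in WT (log2 fold change 1.25 ± 0.31, edgeR adjusted p = 0.0160). Col22a1 was at 0.204, 0.126 and 0.204 CPM in KO and at 0.0695, 0.0471 and 0.0829 CPM in WT (1.41 ± 0.41, edgeR adjusted p = 0.0307), and it passed the filter through the KO libraries alone, so its presence among the tested genes already required a difference. Col20a1 was not past the threshold without KO replicate 2 (edgeR adjusted p = 0.0617), KO replicate 3 (0.0541) or WT replicate 2 (0.0612). Col22a1 was not past it without KO replicate 1 (edgeR adjusted p = 0.111), KO replicate 3 (0.108), WT replicate 1 (0.0595) or WT replicate 2 (0.113), nor in DESeq2 (0.0936). Both calls were also lost with the Xist term (edgeR adjusted p = 0.264 for Col20a1 and 0.115 for Col22a1). Col14a1, at 0.127 to 0.295 CPM, was not called, and Col9a1, Col9a2, Col9a3 and Col19a1 were below the filter. Summed per kb, the 9 genes of the family came to 4.67 ± 0.519 CPM per kb in KO and 8.15 ± 0.384 in WT (SD, n = 3 each), mostly Col12a1.

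Type VI collagen forms beaded filaments around cells from the chains of Col6a1, Col6a2 and Col6a3. Col6a3 (ENSMUSG00000048126) was at 7.61, 3.92 and 5.17 CPM in KO and at 2.71, 2.40 and 3.09 CPM in WT, with no overlap. The log2 fold change was 1.03 ± 0.21 (SE, edgeR adjusted p = 0.00698). Col6a2 (ENSMUSG00000020241) was at 1.03, 0.588 and 0.703 CPM in KO and at 0.151, 0.273 and 0.197 CPM in WT, also with no overlap. Col6a2 had a log2 fold change of 1.88 ± 0.31 (edgeR adjusted p = 0.00210). Both held without each library and with the Xist term, where the changes were 1.48 for Col6a3 (edgeR adjusted p = 0.00262) and 2.29 for Col6a2 (0.00416). Col6a1, the neighbour of Col6a2 on chromosome 10, was at 2.60, 2.01 and 2.44 CPM in KO and at 1.38, 2.02 and 2.06 CPM in WT. Those groups overlapped, and Col6a1 was not called (0.36 ± 0.19, edgeR adjusted p = 0.184). The ratio of Col6a1 to Col6a2 per kb was 5.96 ± 1.02 in KO and 17.1 ± 2.92 in WT. The size of this ratio depends on the length used. Over all libraries Col6a2 averaged 0.0589 CPM per kb of exon and 0.0999 per kb of its longest annotated transcript. For Col6a1 these values were 0.476 and 0.509. Col6a4, Col6a5 and Col6a6 were below the filter. Type VI is made by connective tissue cells in quantity, and the part of the cells whose markers are given above was not tested for these genes.

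The multiplexins, Col15a1 and Col18a1, are basement membrane proteoglycans that carry collagen helices. Col18a1 (ENSMUSG00000001435), the source of endostatin, was the most abundant collagen gene per kb, with means of 83.0 CPM per kb in KO and 79.9 CPM per kb in WT. It was at 577, 567 and 604 CPM in KO and at 473, 593 and 616 CPM in WT, and the groups overlapped (log2 fold change 0.06 ± 0.10 (SE), edgeR adjusted p = 0.722). Col15a1 was at 2.78, 2.11 and 2.94 CPM in KO and at 1.23, 1.70 and 1.93 CPM in WT (0.69 ± 0.20, edgeR adjusted p = 0.0298). Its call was lost without KO replicate 1 (edgeR adjusted p = 0.0980), KO replicate 3 (0.114), WT replicate 1 (0.0606) or WT replicate 2 (0.0655), and with the Xist term (0.127). Col7a1, the gene of the anchoring fibrils that fasten basement membranes to the tissue below, was at 92.2, 102 and 104 CPM in KO and at 70.3, 97.4 and 106 CPM in WT and was not called (0.12 ± 0.13, edgeR adjusted p = 0.521). WT replicate 1 was the lowest library for Col18a1, Col15a1 and Col7a1 alike.

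No short-chain network collagen was called by edgeR over the 6 libraries. Col10a1, known from growth plate cartilage, was at 3.33, 1.77 and 2.10 CPM in KO and at 2.46, 2.40 and 2.61 CPM in WT (log2 fold change -0.05 ± 0.21 (SE), edgeR adjusted p = 0.879). Col8a1, a vessel wall and Descemet membrane collagen, was at 4.83, 5.88 and 6.33 CPM in KO and at 4.92, 4.31 and 3.32 CPM in WT (0.44 ± 0.16, edgeR adjusted p = 0.0681), and it passed without WT replicate 1 (0.59, adjusted p = 0.0215), in DESeq2 (0.45, adjusted p = 0.0278) and in edgeR with no filter beyond a total count of 1 (0.43, adjusted p = 0.0194). Col8a2 was at most 0.306 CPM. Of the transmembrane collagens besides Col23a1, Col17a1, a component of hemidesmosomes, was at 1.98, 1.72 and 2.07 CPM in KO and at 1.62, 2.16 and 1.82 CPM in WT and was not called (0.04 ± 0.17, edgeR adjusted p = 0.882), and Col13a1 and Col25a1 were below the filter. Of the genes in none of these families, Col26a1 was at 0.510, 0.515 and 0.621 CPM in KO and at 0.151, 0.169 and 0.331 CPM in WT. Its log2 fold change was 1.33 ± 0.31 (edgeR adjusted p = 0.0134), which did not pass without KO replicate 3 or without WT replicate 2 (0.0534 each) or with the Xist term (0.130). Col28a1 was at 0.0340, 0.0840 and 0.0509 CPM in KO and at 0.0116, 0 and 0 CPM in WT, below the filter and not tested.

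In all, 31 of the 33 tested genes passed the filter through all 6 libraries. The 11 that did not pass were at most 0.102 CPM in any library, under the filter's 0.105 CPM. Col9a1 had no read in any library, which allows a level of up to 0.0280 to 0.0349 CPM per library (3 counts, counting error only). The strand setting of the counting is not known here, and reads of a gene on the other strand could be included. Among tested collagen genes the largest exon overlap with such a gene was 5.65% of the exon length, between Col4a3 and C430014B12Rik.

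**Figure D3:**
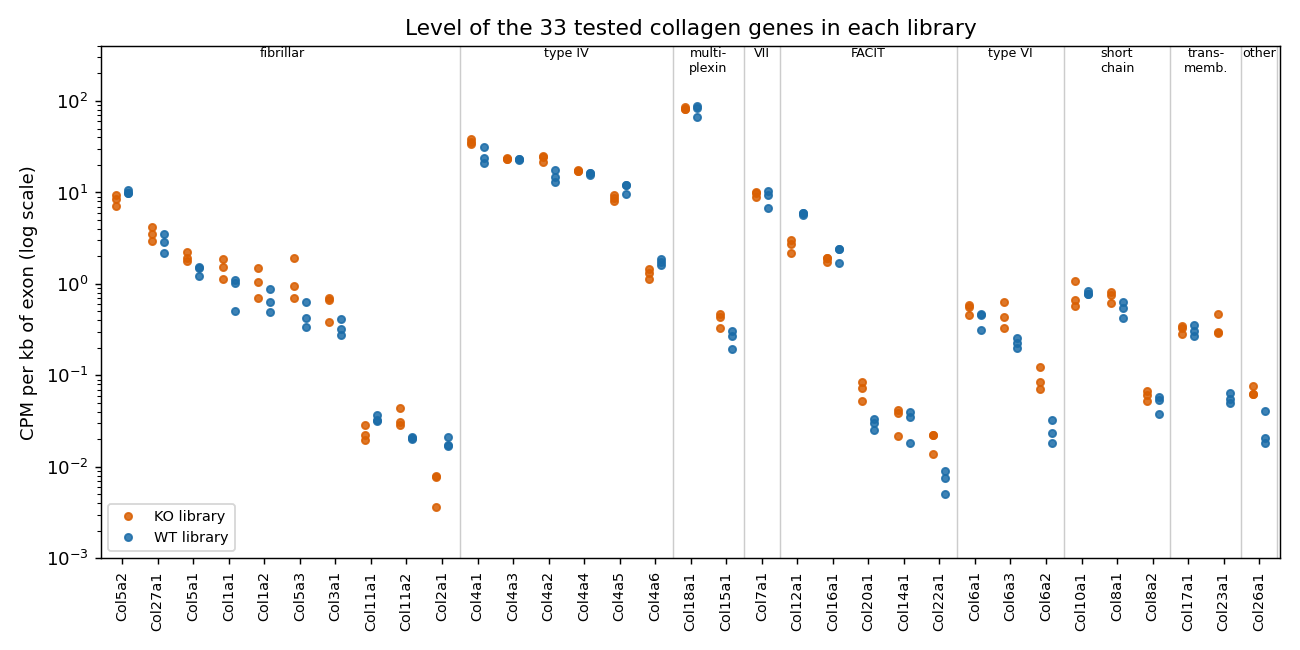
Level of each tested collagen gene in each library (y axis, CPM per kb of exon, log scale; points are libraries, KO left of WT in each pair), grouped by type. Col18a1 and 5 of the 6 type IV chains, with Col7a1 and Col5a2, occupy the top of the range, the other fibrillar genes lie at or below the level of Col27a1, and Col12a1 shows KO well under WT.

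Per unit of exon length, the collagen transcripts of these cultures were mostly those of basement membranes. Type IV made up 48.0% of the summed level in KO and 44.35% in WT, and the multiplexins 36.3% in KO and 38.3% in WT. Fibrillar genes made up 7.98% in KO and 8.08% in WT. The summed level over all 44 genes was 225.9, 222.6 and 240.8 CPM per kb in KO and 186, 211 and 229 CPM per kb in WT, so that the groups overlapped. For type IV it was 109.8, 106 and 115 CPM per kb in KO and 86.8, 89.0 and 101.7 in WT, above WT in each KO library. For the fibrillar class it was 18.4 ± 2.41 CPM per kb in KO and 16.9 ± 1.66 in WT (SD, n = 3 each), a difference within the spread. With the longest annotated transcript in place of the union of exons, the total in KO was 273 CPM per kb in place of 229.8.

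The types also differ in a feature of their sequence that the selection did not use. In the longest reading frame of each gene's coding transcripts, glycine codons at the third place of successive triplets were counted in runs of at least 5. Fibrillar genes held 2 to 3 such runs, the longest of 216 to 344 triplets (median 338). Type IV genes held 22 to 27 runs, the longest of 39 to 66 triplets, and the genes of other types 2 to 21 runs, the longest of 23 to 113. Genes higher in KO and genes lower in KO occurred both in the fibrillar class and in type IV.

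Genes that make, move, bind and degrade collagen were examined in 7 lists of 76 genes in all, of which 63 were tested. KO was higher for 16 of them (25.4%), beside 12.0% of all tested genes, and lower for 5 (7.94%), beside 9.08%, with a median log2 fold change of 0.12. Without Fap, which passed the filter through the KO libraries alone, 15 of 62 (24.2%) were higher and 5 (8.06%) lower. With the Xist term 7 of the 21 calls remained (Bgn, Fn1, Itga2, Loxl4, Mmp13, Thbs1 and Tll1), and without the Xist-high libraries Mmp2 and Sparc remained as well. Of 19 folding enzymes and chaperones, 2 (10.5%) were higher and 1 (5.26%) was lower. The collagen chaperone Serpinh1 was at 306, 349 and 359 CPM in KO and at 296, 355 and 351 CPM in WT and was not called (edgeR adjusted p = 0.914). The lysyl hydroxylase Plod2, which prepares telopeptides for cross-linking, was at 72.3, 73.9 and 86.2 CPM in KO and at 121, 104 and 95.4 CPM in WT (log2 fold change -0.46 ± 0.10 (SE), edgeR adjusted p = 0.0085), a call lost without KO replicate 1 (0.0612). The prolyl hydroxylases P4ha1 (0.28 ± 0.08, edgeR adjusted p = 0.0284) and P4ha3 (0.55 ± 0.18, 0.0452) were slightly higher in KO. P4ha1 kept its call without WT replicate 1 and lost it without each other library in turn (edgeR adjusted p of 0.0516 to 0.104). P4ha3 kept its call without WT replicate 2 and lost it without each other library (0.0656 to 0.154).

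Of 9 secretion genes, 4 (44.4%) were higher and 1 (11.1%) was lower in KO, beside 12.0% and 9.08% of all tested genes. The transcription factors Creb3l2, at 90.4, 99.5 and 107 CPM in KO and 74.3, 74.6 and 72.2 CPM in WT, and Creb3l1, at 4.58, 6.40 and 7.76 CPM in KO and 2.25, 3.83 and 3.73 CPM in WT, control genes of the secretory route. Their log2 fold changes were 0.42 ± 0.08 (SE, edgeR adjusted p = 0.00346) and 0.93 ± 0.22 (0.0133). Creb3l1 did not pass without KO replicate 3 (edgeR adjusted p = 0.0631), and neither passed with the Xist term (0.128 for Creb3l2 and 0.315 for Creb3l1). Klhl12, the ubiquitin ligase adaptor that enlarges COPII carriers for procollagen, was at 23.3, 25.2 and 23.4 CPM in KO and at 32.6, 29.5 and 31.7 CPM in WT (-0.38 ± 0.08, edgeR adjusted p = 0.00816), a call lost without KO replicate 1 (0.0543). The COPII coat gene Sec24d was called at 0.25 ± 0.08 (edgeR adjusted p = 0.0454) and kept its call without WT replicate 3, but lost it without each other library in turn (edgeR adjusted p of 0.0516 to 0.152), with no filter beyond a total count of 1 (0.0684) and with the replicate block (0.0697).

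Of 11 procollagen processing genes, 7 were tested, 1 was higher and 1 lower (14.3% each), beside 12.0% and 9.08% of all tested genes. Tll1, a proteinase of the BMP1 family that removes propeptides, was at 5.88, 5.98 and 6.97 CPM in KO and at 21.3, 20.2 and 17.4 CPM in WT. The groups lay far apart, and with a log2 fold change of -1.65 ± 0.11 (SE, edgeR adjusted p = 1.13e-05) it was called in every alternative run. Bmp1 itself was at 155, 154 and 178 CPM in KO and at 129, 156 and 173 CPM in WT and was not called (edgeR adjusted p = 0.558). Pcolce, which enhances propeptide removal, was at 41.9, 40.7 and 34.8 CPM in KO and 29.0, 30.9 and 34.7 CPM in WT (0.31 ± 0.10, edgeR adjusted p = 0.0449), and its call was lost without KO replicate 1 (0.151), KO replicate 2 (0.124), WT replicate 1 (0.0687) or WT replicate 2 (0.117), and with the replicate block (0.0563).

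Of 7 cross-linking enzymes, 2 (28.6%) were higher in KO, beside 12.0% of all tested genes, and none was called lower. Loxl2, the lysyl oxidase that acts on type IV collagen, was at 19.6, 18.0 and 27.9 CPM in KO and at 14.5, 14.6 and 16.2 CPM in WT (log2 fold change 0.53 ± 0.14 (SE), edgeR adjusted p = 0.0237). It did not pass without KO replicate 3 (0.32, edgeR adjusted p = 0.0819) or without WT replicate 2 (0.0766). Loxl4 was at 87.8, 83.4 and 64.3 CPM in KO and at 64.9, 55.2 and 55.6 CPM in WT, where KO replicate 3 lay just under WT replicate 1 (0.42 ± 0.11, edgeR adjusted p = 0.0228). Its call was lost without KO replicate 1 (edgeR adjusted p = 0.102), KO replicate 2 (0.0766), WT replicate 2 (0.0736) or WT replicate 3 (0.0506).

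Breakdown genes showed the largest median of the 7 lists, 0.88 on the log2 scale with Fap included. KO was higher for 4 of 8 tested genes (50%), or 3 of 7 (42.9%) without Fap, beside 12.0% of all tested genes. None was called lower. The collagenase Mmp13 was at 23.1, 11.3 and 10.1 CPM in KO and at 3.57, 2.53 and 2.28 CPM in WT, with KO replicate 1 the highest. Its log2 fold change was 2.41 ± 0.29 (SE, edgeR adjusted p = 0.000331), and it held in every alternative run. The gelatinase Mmp2 was at 5.75, 3.48 and 8.13 CPM in KO and at 2.85, 3.29 and 2.87 CPM in WT (0.94 ± 0.24, edgeR adjusted p = 0.0189), a call lost without KO replicate 1 (0.0578) or KO replicate 3 (0.0805). Fap, a protease of activated fibroblasts, was at 0.136, 0.200 and 0.316 CPM in KO and at 0.0926, 0.0565 and 0.0518 CPM in WT (1.71 ± 0.44, edgeR adjusted p = 0.0199), and it passed the filter through the KO libraries alone, so that it had to differ to be tested. Mrc2, an endocytic collagen receptor, was at 1.18, 1.31 and 2.24 CPM in KO and at 0.857, 0.781 and 1.05 CPM in WT (0.82 ± 0.25, edgeR adjusted p = 0.0394). Fap did not pass without KO replicate 3 (edgeR adjusted p = 0.0965), WT replicate 2 (0.0704) or WT replicate 3 (0.0567), and Mrc2 did not without KO replicate 3 (0.175), WT replicate 1 (0.0689) or WT replicate 2 (0.120), nor in limma-voom (0.0520). Macrophages and fibroblasts also make such enzymes. The 14 markers of macrophages and leukocytes summed to 47.3 to 57.1 CPM in KO and 32.5 to 38.0 CPM in WT. Of 13 tested, 6 (46.2%) were higher, beside 12.0% of all tested genes, and none was called lower. The part of these cells was not tested. The more abundant Mmp14 was at 232, 246 and 259 CPM in KO and at 209.8, 264 and 273 CPM in WT and was not called (edgeR adjusted p = 0.899).

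Of 9 collagen receptors, 8 were tested and 1 (12.5%) was called, higher in KO, beside 12.0% of all tested genes. Itga2, the alpha subunit of an epithelial integrin that binds collagen, was at 417, 318 and 319.7 CPM in KO and at 203, 196 and 180.5 CPM in WT. Every KO library lay well above WT, and the log2 fold change was 0.86 ± 0.11 (SE, edgeR adjusted p = 0.000402), past the threshold in every alternative run. Its partner subunit Itgb1 was at 2957, 2787 and 2899 CPM in KO and at 3239.5, 2967 and 2693 CPM in WT and was not called (edgeR adjusted p = 0.775).

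Of 13 proteoglycans and organizers of fibrils, 5 were tested, 2 were higher and 2 lower in KO (40% each), beside 12.0% and 9.08% of all tested genes. Fn1 (fibronectin), on which collagen fibrils assemble, was at 4133, 3674 and 4278 CPM in KO and at 6017, 6009.6 and 5844 CPM in WT (log2 fold change -0.56 ± 0.09 (SE), edgeR adjusted p = 0.00206). Thbs1, a thrombospondin, was at 3743, 3879.5 and 4460.3 CPM in KO and at 6127, 5815 and 6177 CPM in WT (-0.58 ± 0.10, edgeR adjusted p = 0.00214). Both stayed past the threshold in every alternative run. Sparc, a collagen-binding matricellular protein, was at 91.7, 85.7 and 124 CPM in KO and at 56.2, 60.6 and 64.9 CPM in WT (0.73 ± 0.12, edgeR adjusted p = 0.00242), and it held without each library but not with the Xist term (0.0699). The X-linked Bgn (biglycan) was at 16.1, 8.29 and 15.9 CPM in KO and at 6.21, 6.96 and 7.36 CPM in WT (0.97 ± 0.21, edgeR adjusted p = 0.00792), with KO replicate 2 lowest in KO.

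**Figure D4:**
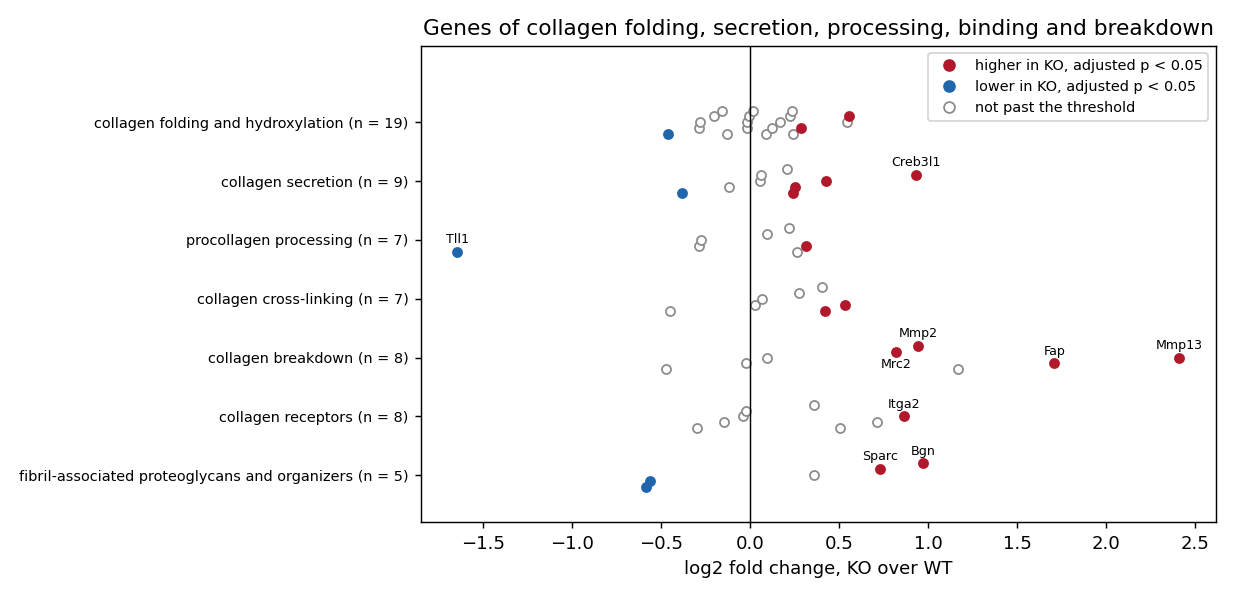
Log2 fold change (x axis, KO over WT) of the tested genes in the 7 lists on collagen folding, secretion, processing, cross-linking, breakdown, receptors and proteoglycans (rows, with the number tested). Filled points passed the threshold; 16 lie right of 0 and 5 left of it, with Mmp13 at 2.41 and Tll1 at -1.65 the outermost.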

How the data were processed

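RNA from 6 primary cultures (3 KO, 3 WT) was sequenced, with group and replicate number read from the titles. The authors deposited raw counts, whole numbers of reads per Ensembl gene and library with no normalization. Per the submitters' processing notes, the tools were Trimmomatic 0.38, STAR 2.7.1a and HTSeq 0.11.2 and the build was mm10. Annotation release, strand setting and treatment of multimapping reads were not given in the sources used here. Reads of near-identical or overlapping genes may be split, dropped or shared.

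Symbols, exon coordinates and lengths came from GENCODE release M21 (GRCm38), which matched 48144 of the 48526 genes in the tables, while the other 382 held 0.0165% of the counts. Promoter windows came from RefSeq (GRCm38.p6) and 35 of the 44 collagen genes had one. All genes kept by filterByExpr at its defaults (17571) were scaled with TMM factors and tested with edgeR 4.0.16 in R 4.3.3 by the quasi-likelihood test with genotype as the only term. Benjamini-Hochberg adjustment ran over all of them, with a threshold of 0.05. A standard error is the size of the log2 fold change divided by the root of its F statistic. CPM uses TMM-scaled library sizes, and CPM per kb divides it by the union of exons. Values are mean ± SD over 3 libraries. The procedure was tested on simulated counts. Libraries of the same group were compared by a chi-square of their counts, which was 25.07 to 84.55 per degree of freedom, so none was a copy of another in its group. KO libraries were not compared with WT libraries in this way.

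The collagen genes, the lists and the tests were chosen with earlier results of these data known. Values are given for each called collagen gene, for the 2 collagen genes with the highest CPM per kb in each family, and for up to 4 called members of each supporting list by smallest adjusted p. Other genes named are partners, neighbours or abundant members chosen after their values were seen. Alternatives were other scalings, other filters, DESeq2 1.42.0, limma-voom (limma 3.58.1), the replicate number as a block, leaving out each library and, chosen after seeing the data, a term for the Xist-high libraries (over 10 CPM of Xist) or leaving them out. Figures were drawn with matplotlib 3.10.9.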

Additional observations from a re-analysis of the deposited data

How the results depend on the processing

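Of the 18 collagen genes called (13 higher and 5 lower in KO), 10, 16, 6, 12, 9 and 16 kept their call without KO replicates 1, 2 and 3 and WT replicates 1, 2 and 3, in that order. Over these fits 6 to 17 collagen genes were called in all, 5 to 14 higher and 1 to 4 lower, while the calls among all genes numbered 1683 to 3766 in place of 3698 and those in the supporting lists 12 to 21 in place of 21. Requiring a mean of at least 1 CPM left 24 collagen genes to test, of which 11 were called (8 higher, 3 lower). With the Xist term 7 collagen genes (4 higher, 3 lower), 1163 of all genes and 7 list genes were called. Without the Xist-high libraries the numbers were 6 (5 higher, 1 lower), 907 and 9. These fits have fewer residual degrees of freedom than that of all 6 libraries. With other scalings, limma-voom, DESeq2 and no filter beyond a total count of 1, the number of collagen genes called stayed within 1.5 times of 18. No called collagen gene changed direction in any alternative run. The summed collagen level in KO was 273 CPM per kb with the longest annotated transcript, against 229.8 with the union of exons.

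With the replicate number as a block, 20 collagen genes were called (15 higher, 5 lower) and 3594 of all genes. Deviations from the group means of KO and WT libraries that share a number had correlations of 0.129, -0.301 and 0.0844. Between libraries of unlike number they ran from -0.233 to 0.255. This gave no sign that the numbers pair the samples, but with 3 libraries per group it cannot exclude pairing. Depth limits the genes below about 1 CPM.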
